A study of Homo sapiens with 18 samples.

Results

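Described here are 10 genes of no common pathway whose mRNA was lower in leukaemia cells carrying a hairpin against BCAT1, in 3 lines for 9 of them and in 2 lines for DUSP3: ZDHHC9, SCAMP1, SPTSSA, TENT5C, LSM14A, SNRNP27, FHOD1, KATNA1, UBE2Q2 and DUSP3. They were picked on measured values of these same arrays, for the size or the evenness of the difference between the BCAT1 hairpin and the control hairpin. Those differences are therefore given as a description with standard errors, and no test of them is made. The genes are 10 of 20046 on the array, and all 10 are among the 15288 that were bright enough to be tested.

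RNA of HL-60, SKM1 and MOLM13, 3 established human lines of acute myeloid leukaemia, was hybridised to 18 one-colour Illumina BeadChips. A lentivirus had brought each line a hairpin RNA against the transaminase BCAT1 (the construct shBCAT1-3, one hairpin sequence, called shBCAT1 here) or a non-targeting hairpin (shNT), and transduced cells had been sorted 48 h later, so that control cells had been transduced and sorted too. The 6 groups were HL-60 with shBCAT1, HL-60 with shNT, SKM1 with shBCAT1, SKM1 with shNT, MOLM13 with shBCAT1 and MOLM13 with shNT, each with 3 arrays. HL-60 was grown in RPMI with 10% serum and the other lines in RPMI with 20% serum. The labels do not say whether the arrays of a group came from separate cultures, so the p-values below measure only the spread between these samples, which may be technical. In bulk RNA, fewer cells expressing a gene and less RNA per cell cannot be told apart.

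A short hairpin RNA is cut in the cell into a small RNA that guides an Argonaute protein to transcripts. A transcript that pairs along the whole guide is sliced, as the intended target should be. Transcripts that pair only with the seed, a short stretch near the 5′ end of the guide, can also be lowered, which is why a second hairpin against the same gene is often used. In this design a single hairpin targets BCAT1, and effects that pass through the loss of BCAT1 and effects of the hairpin on other transcripts cannot be told apart. The guide sequence was not used here, and matches between it and any transcript were not analysed here.

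BCAT1, the cytosolic transaminase of the branched-chain amino acids, was the reference for the size of each difference. With shNT its single named probe read 1473, 1476 and 1456 in HL-60, 1207, 1239 and 1217 in SKM1, and 1046, 1022 and 1144 in MOLM13. With shBCAT1 it read 137, 164 and 135 in HL-60, 121, 133 and 127 in SKM1, and 150, 147 and 173 in MOLM13. Every shBCAT1 array thus lay far below every shNT array of any line. BCAT1 was 10.2-fold lower in HL-60, 9.62-fold lower in SKM1 and 6.84-fold lower in MOLM13, with log2 differences of −3.34, −3.27 and −2.77 (SE 0.08, n = 3 per group), which was the largest fall of any tested gene in each line.

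All values are intensities on the authors' normalized linear scale, on which the median of all probes was 92.1 and the 18 array medians lay between 91.0 and 93.1. Across genes, r between arrays of the same group was 0.989 to 0.997. The labelled cell type was checked against markers with shNT: 8 of 9 myeloid markers on the array exceeded 2 times the median of all probes in HL-60 and 9 of 9 did in SKM1 and in MOLM13, while all 4 erythroid markers stayed below that level. Of 6 lymphoid and 5 epithelial markers, CD3D in MOLM13 (412) and EPCAM in SKM1 (1473) exceeded it and the others did not in any line. The number of arrays limits the precision.

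The 10 genes lie on 10 different chromosomes, X, 5, 14, 1, 19, 2, 16, 6, 15 and 17 in the order named above, and BCAT1 lies on chromosome 12. Promoter windows from RefSeq, build GRCh38.p14, reached from 250 bases before to 50 bases after the start of a gene, and were found for 9 of the 10 (all but LSM14A). Where a gene had several windows, as ZDHHC9 and UBE2Q2 with 2 each, only the first listed was used. Printed are the windows of the 3 genes with the largest mean falls among these by brightest probe (SCAMP1, SNRNP27 and ZDHHC9). They set the starts of these genes side by side. Capitals mark the motifs searched, on either strand: the CCAAT box, GGGCGG of the GC box, TGACG of the cAMP response half-site and CCGGAAG of the ETS core.
ZDHHC9, chrX:129843837-129844136, minus strand: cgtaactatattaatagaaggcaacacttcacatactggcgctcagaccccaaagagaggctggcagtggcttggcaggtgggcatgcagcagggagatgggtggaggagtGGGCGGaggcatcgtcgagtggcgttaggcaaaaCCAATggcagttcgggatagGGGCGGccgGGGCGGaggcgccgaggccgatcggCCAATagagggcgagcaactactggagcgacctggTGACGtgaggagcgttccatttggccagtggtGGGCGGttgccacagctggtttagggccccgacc
SCAMP1, chr5:78360367-78360666, plus strand: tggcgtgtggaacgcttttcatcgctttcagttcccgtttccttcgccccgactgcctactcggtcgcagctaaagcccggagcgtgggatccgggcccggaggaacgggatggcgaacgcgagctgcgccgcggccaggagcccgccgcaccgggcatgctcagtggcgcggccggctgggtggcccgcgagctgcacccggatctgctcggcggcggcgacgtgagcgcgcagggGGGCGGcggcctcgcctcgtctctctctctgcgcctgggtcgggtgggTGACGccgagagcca
SNRNP27, chr2:69893706-69894005, plus strand: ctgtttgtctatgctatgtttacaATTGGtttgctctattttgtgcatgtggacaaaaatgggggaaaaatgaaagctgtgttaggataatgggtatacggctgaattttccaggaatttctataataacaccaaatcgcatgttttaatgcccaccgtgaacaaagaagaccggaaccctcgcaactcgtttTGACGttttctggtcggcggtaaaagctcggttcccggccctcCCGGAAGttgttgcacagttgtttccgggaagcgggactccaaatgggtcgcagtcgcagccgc

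The ZDHHC9 window held the GC box, the CCAAT box and the cAMP half-site, the SCAMP1 window the GC box and the half-site, and the SNRNP27 window the CCAAT box, the ETS core and the half-site. Over the 9 windows, GC content had a median of 72.3% and ran from 47% in SNRNP27 to 79.7% in SPTSSA, against a median of 64% over the windows of 11897 tested genes. GGGCGG, the GC box, was present in 8 of the 9 windows and in 63.7% of all windows. The half-site TGACG was present in 6 of 9 and in 32.4% of all, and the CCAAT box in 5 of 9 and in 36.6% of all. The ETS core was in 2 of 9 and in 16.6% of all. The E-box (CACGTG) and, as a TATA box, the letters TATAAA were each in 0 of 9, against 9.61% and 7.63% of all windows. A match is a description of letters and not a binding site.

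ZDHHC9, SCAMP1 and SPTSSA act in membrane traffic and membrane lipids. ZDHHC9 encodes a Golgi palmitoyltransferase that, with its partner GOLGA7, attaches palmitate to HRAS and NRAS. Its probe ILMN_1803824 read 575, 538 and 526 with shNT and 233, 222 and 258 with shBCAT1 in HL-60. In SKM1 it read 354, 414 and 424 with shNT and 182, 165 and 176 with shBCAT1. In MOLM13 it read 496, 515 and 495 with shNT and 214, 192 and 199 with shBCAT1. The groups did not overlap in any line, and the fold difference was nearly the same in each: 2.30-fold lower in HL-60, 2.28-fold in SKM1 and 2.49-fold in MOLM13. The log2 differences were −1.20, −1.19 and −1.32 (SE 0.08), and their range of 0.13 was the smallest of the 10 genes.

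SCAMP1 encodes a secretory carrier membrane protein of post-Golgi recycling vesicles. Its brightest probe, ILMN_1728907, read 1081, 1041 and 921 with shNT and 434, 404 and 383 with shBCAT1 in HL-60. The SKM1 arrays read 1353, 1448 and 1405 with shNT and 494, 460 and 490 with shBCAT1. The MOLM13 arrays read 1041, 1027 and 1222 with shNT and 514, 498 and 596 with shBCAT1. The groups were apart in every line, by 2.49-fold in HL-60, 2.91-fold in SKM1 and 2.05-fold in MOLM13, or −1.32, −1.54 and −1.03 on the log2 scale (SE 0.09). By brightest probes, SCAMP1 had the largest mean fall of the 10, with a log2 value of −1.30 (SE 0.05), rank 7 of all tested genes. With all of its probes averaged, the falls were far smaller, −0.54, −0.59 and −0.29 in HL-60, SKM1 and MOLM13.

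SPTSSA encodes a small subunit that activates serine palmitoyltransferase, the first enzyme of sphingolipid synthesis. It read 385, 348 and 350 with shNT and 144, 121 and 131 with shBCAT1 in HL-60. In SKM1 it read 316, 300 and 296 with shNT and 158, 156 and 164 with shBCAT1. In MOLM13 it read 334, 308 and 302 with shNT and 148, 169 and 189 with shBCAT1. The groups did not overlap, and the fall was larger in HL-60 (2.73-fold) than in SKM1 (1.90-fold) and MOLM13 (1.87-fold). On the log2 scale the difference between hairpins was smaller by 0.52 in SKM1 and by 0.55 in MOLM13 than in HL-60 (SE 0.12 for both).

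TENT5C, LSM14A and SNRNP27 act on RNA. TENT5C encodes a non-canonical poly(A) polymerase that lengthens mRNA tails and is recurrently mutated in multiple myeloma. It read 1648, 1597 and 1428 with shNT and 803, 645 and 804 with shBCAT1 in HL-60. In SKM1 it read 391, 402 and 440 with shNT and 158, 154 and 163 with shBCAT1. In MOLM13 it read 384, 489 and 504 with shNT and 210, 196 and 191 with shBCAT1. The level in HL-60 with shBCAT1 was thus above that of the other lines with shNT. TENT5C was 2.08-fold, 2.59-fold and 2.29-fold lower in HL-60, SKM1 and MOLM13, with log2 values of −1.06, −1.38 and −1.20 (SE 0.10). For the log2 fall, SKM1 minus HL-60 was −0.32 (SE 0.14) and MOLM13 minus HL-60 was −0.14 (SE 0.14). Of the intensity above the median of all probes, SKM1 kept 20.8%, MOLM13 29.2% and HL-60 44.9%.

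LSM14A encodes an RNA-binding protein of processing bodies, the cytoplasmic granules of decapping and translational repression. It read 2476, 2243 and 2147 with shNT and 841, 663 and 839 with shBCAT1 in HL-60. The SKM1 arrays read 1647, 1660 and 1646 with shNT and 774, 716 and 764 with shBCAT1. The MOLM13 arrays read 1447, 1578 and 1575 with shNT and 922, 874 and 1018 with shBCAT1. The groups were apart in each line, and the fold difference went down from 2.94 in HL-60 to 2.20 in SKM1 and 1.64 in MOLM13. The log2 differences were −1.56, −1.14 and −0.71 (SE 0.09), a range of 0.85.

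SNRNP27 encodes a protein of the U4/U6.U5 tri-snRNP, the particle that carries the catalytic RNAs into the spliceosome. Its probe ILMN_3239621 read 365, 324 and 323 with shNT and 122, 150 and 157 with shBCAT1 in HL-60. The SKM1 arrays read 672, 679 and 681 with shNT and 240, 206 and 219 with shBCAT1. The MOLM13 arrays read 402, 438 and 438 with shNT and 251, 214 and 226 with shBCAT1. The groups did not overlap, and the fall was 2.36-fold in HL-60, 3.06-fold in SKM1 and 1.85-fold in MOLM13 (log2 −1.24, −1.61 and −0.89, SE 0.09). The SKM1 value was the largest fold difference among the brightest probes of the 10 genes. With both SNRNP27 probes averaged it was −1.52 on the log2 scale, smaller than the falls of DUSP3 and LSM14A in HL-60.

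FHOD1 and KATNA1 act on the cytoskeleton, and UBE2Q2 on ubiquitin transfer. FHOD1, a formin that binds actin filaments, lay between 761 and 790 with shNT and between 388 and 427 with shBCAT1 in HL-60, between 383 and 404 against 185 and 217 in SKM1, and between 450 and 524 against 294 and 316 in MOLM13. KATNA1, the catalytic subunit of the microtubule-severing ATPase katanin, lay between 621 and 770 with shNT and between 412 and 425 with shBCAT1 in HL-60, between 637 and 686 against 311 and 354 in SKM1, and between 472 and 490 against 267 and 288 in MOLM13. UBE2Q2, a ubiquitin-conjugating enzyme, lay between 255 and 328 with shNT and between 162 and 178 with shBCAT1 in HL-60, between 434 and 473 against 199 and 234 in SKM1, and between 337 and 468 against 202 and 277 in MOLM13. None of the 3 overlapped between hairpins in any line. FHOD1 was 1.90-fold, 1.94-fold and 1.64-fold lower in HL-60, SKM1 and MOLM13 (log2 SE 0.08). KATNA1 was 1.64-fold, 1.96-fold and 1.72-fold lower (log2 SE 0.08), and UBE2Q2 1.71-fold, 2.17-fold and 1.70-fold lower (log2 SE 0.12).

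DUSP3 encodes a small dual-specificity phosphatase that acts on the MAP kinases ERK and JNK. It read 589, 666 and 532 with shNT and 206, 166 and 230 with shBCAT1 in HL-60. The SKM1 arrays read 1117, 1242 and 1317 with shNT and 616, 575 and 598 with shBCAT1. The MOLM13 arrays read 2764, 2555 and 2391 with shNT and 2706, 2584 and 2571 with shBCAT1. The groups were apart in HL-60 (2.98-fold lower) and in SKM1 (2.05-fold lower), and in MOLM13 they overlapped. The log2 differences were −1.57, −1.04 and 0.03 (SE 0.10), and their range of 1.60 was the widest of the 10 genes.

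**Figure D1:**
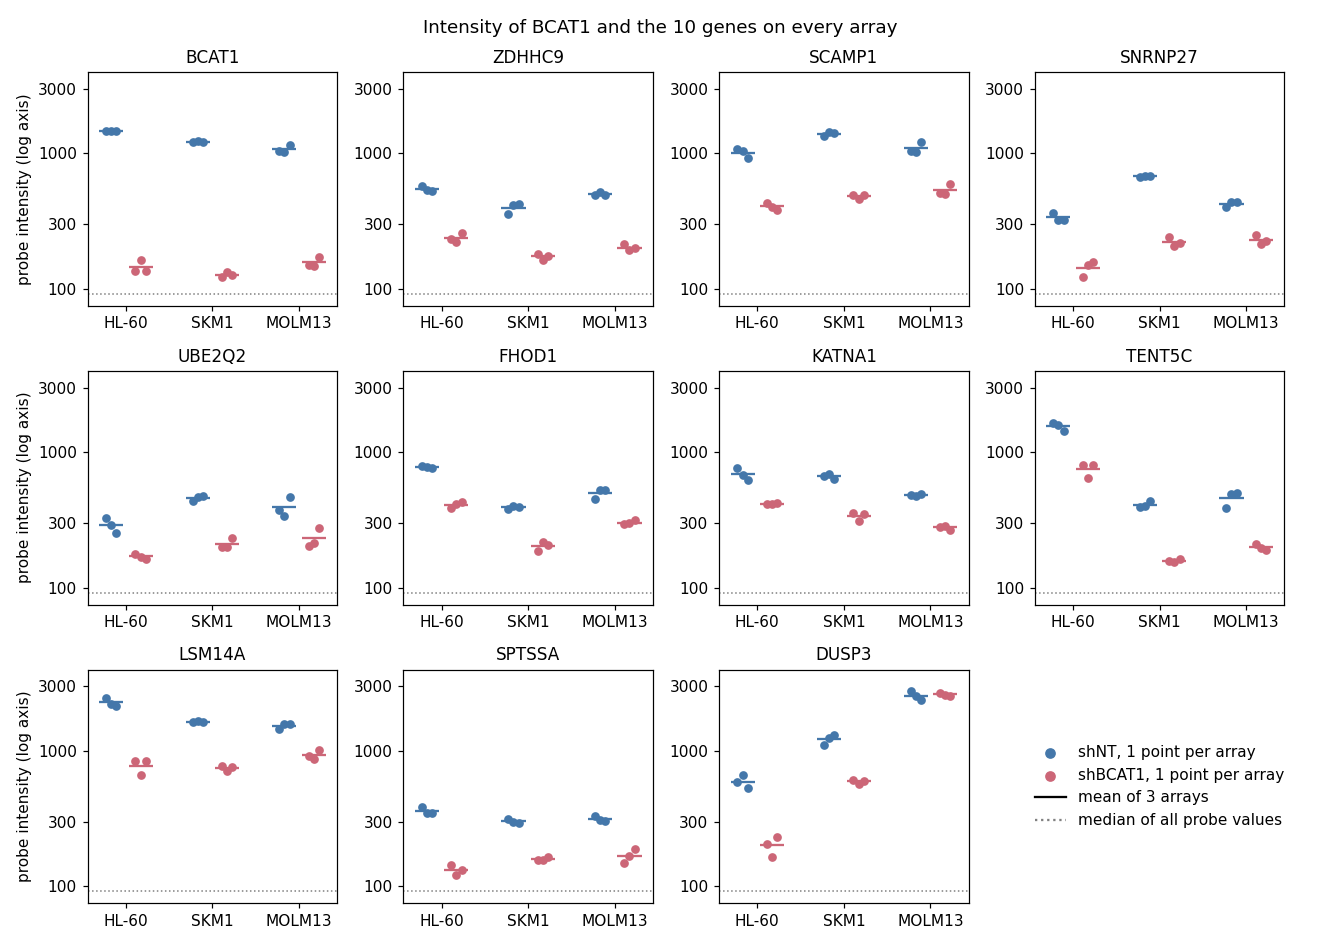
Intensity of BCAT1 and of the 10 genes on each of the 18 arrays (log axis), by line and hairpin, 1 point per array, with a bar at the mean and a dotted line at the median of all probes. The shBCAT1 points lie below the shNT points of the same line in every panel except DUSP3 in MOLM13, where shNT reads 2391 to 2764 and shBCAT1 2571 to 2706.

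Over the 10 genes, the median log2 difference was −1.22 in HL-60, −1.13 in SKM1 and, smallest, −0.84 in MOLM13, where the median of all tested genes was 0.00 in each. All shBCAT1 arrays lay below all shNT arrays for 10, 10 and 9 of the genes, against 13.9%, 17.5% and 15.5% of all tested genes. In all 3 lines at once this held for 9 of the 10 and for 2.99% of all tested genes (457), of which 184 also had a mean log2 fall beyond 0.5. The genes were chosen on this contrast, which fixes these counts, and nothing is read from them.

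**Figure D2:**
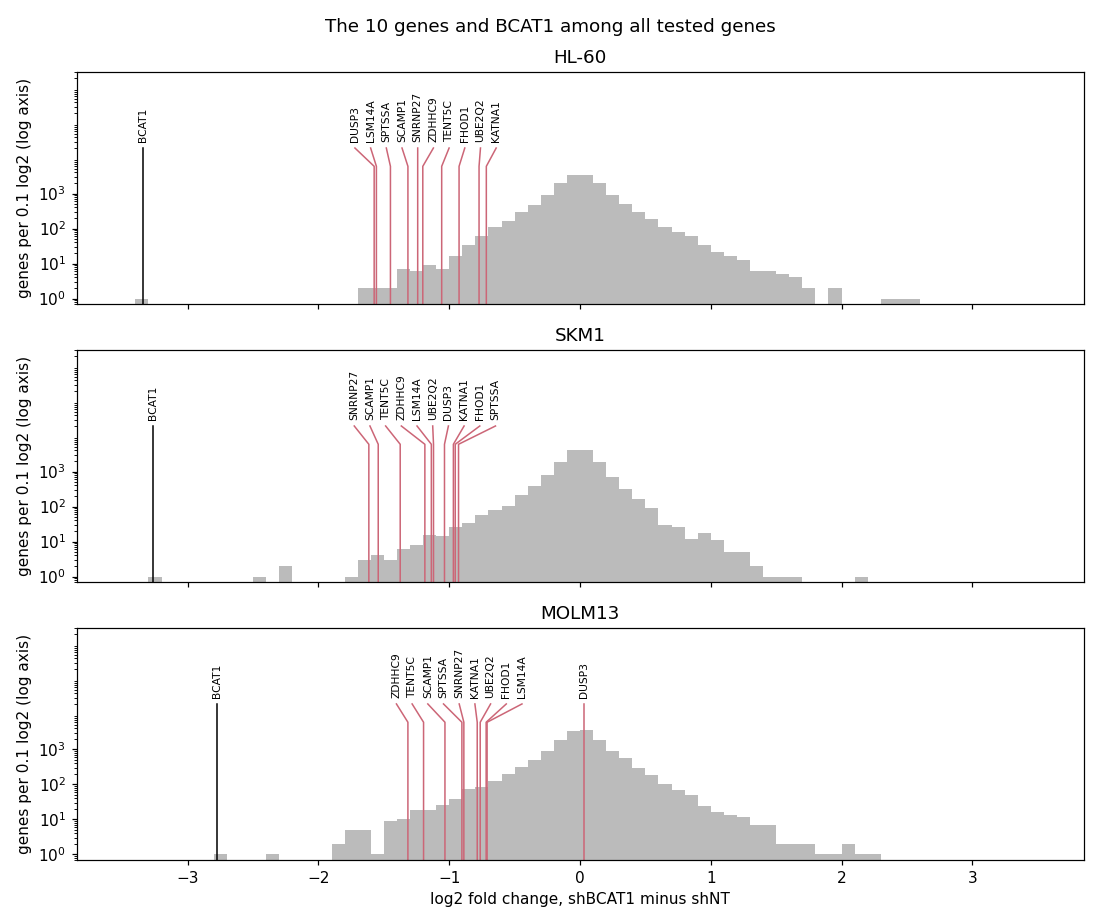
Log2 difference, shBCAT1 minus shNT, of all 15288 tested genes in bins of 0.1 (grey, log axis for the number of genes), one panel per line, with the 10 genes in red and BCAT1 in black. BCAT1 stands alone at the left end at −3.34, −3.27 and −2.77, and the 10 genes lie in the left tail, except DUSP3 in MOLM13 at 0.03.

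Several genes that are not among the 10 had mean falls of the same size. The 5 largest of these, among genes below in all 3 lines, were the mitochondrial topoisomerase TOP1MT (mean log2 −1.40, rank 3), the cell cycle kinase CDK6 (−1.36), the transcription factor BCL11A (−1.33), the mitophagy receptor BNIP3 (−1.30) and the fatty acid oxidation enzyme HADH (−1.30). Among the 10, the ranks of the mean fall by brightest probe were 7 for SCAMP1, 12 for SNRNP27, 13 for ZDHHC9, 14 for TENT5C, 15 for LSM14A and 17 for SPTSSA. UBE2Q2 ranked 39, FHOD1 43, DUSP3 44 and KATNA1 52. Large falls were thus not limited to the 10, which had been picked without a fixed threshold.

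The falls were set against that of BCAT1. Leaving out DUSP3 in MOLM13, the genes kept between 32.7% and 61.2% of their shNT intensity, where BCAT1 kept 9.89%, 10.4% and 14.6% in HL-60, SKM1 and MOLM13. Their log2 falls were between 21.4% and 49.5% of the log2 fall of BCAT1 in the same line. These intensities sit on a background near the median of all probes, and of the intensity above that median the genes kept between 15.0% (SPTSSA in HL-60) and 58.7% (LSM14A in MOLM13). By the same measure BCAT1 kept 3.86%, 3.10% and 6.61%. The lowest group mean of any of the 10 genes was 132 (SPTSSA in HL-60 with shBCAT1), above the median of 92.1.

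BCAT1 itself fell about as far in SKM1 as in HL-60 (difference 0.08, SE 0.12) and by less in MOLM13 (difference 0.57 from HL-60, SE 0.12, on the log2 scale). MOLM13 also had the smallest fall for 7 of the 10 genes, HL-60 for 2 (KATNA1 and TENT5C) and SKM1 for 1 (ZDHHC9). The largest fall was in SKM1 for 6 genes, in HL-60 for 3 (LSM14A, SPTSSA and DUSP3) and in MOLM13 for ZDHHC9. Several neighbours in these orders lay within their standard errors: FHOD1 in SKM1 and HL-60 (0.03 apart, SE 0.11), SPTSSA in MOLM13 and SKM1 (0.03, SE 0.12), UBE2Q2 in MOLM13 and HL-60 (0.01, SE 0.17) and ZDHHC9 in SKM1 and HL-60 (0.02, SE 0.12). For ZDHHC9 the smallest fall was in HL-60 (−1.28) and not in SKM1 (−1.29) after normexp background correction. The order of BCAT1, HL-60 first and MOLM13 last, was shared by LSM14A, SPTSSA and DUSP3. For ZDHHC9, KATNA1 and TENT5C the fall in MOLM13 was larger than in HL-60, by 0.11, 0.07 and 0.14 on the log2 scale (SE 0.12, 0.11 and 0.14), sizes within their standard errors. Evenness over the lines was itself a reason for choosing genes, so these differences are given without a test.

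**Figure D3:**
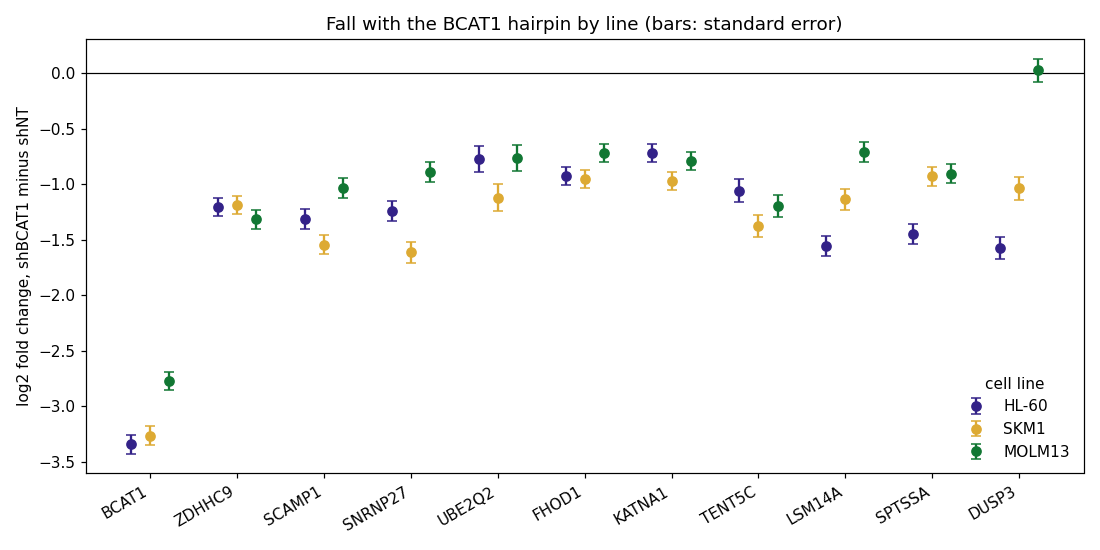
Log2 difference, shBCAT1 minus shNT, of BCAT1 and the 10 genes in each line, with bars of 1 standard error. ZDHHC9 has nearly the same value in the 3 lines (−1.20, −1.19 and −1.32), while LSM14A runs from −1.56 to −0.71 and DUSP3 from −1.57 to 0.03.

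The genes were also set beside BCAT1 array by array. After the mean of each line was taken off, the log2 values of FHOD1 and SCAMP1 followed those of BCAT1 over the 18 arrays with Pearson r of 0.990 and 0.988, and ranked 2 and 3 of 15287 other genes. The 5 highest were HADH (0.996), FHOD1, SCAMP1, the RNA-binding protein NONO (0.988) and LRRC20 (0.986). ZDHHC9 ranked 8, SNRNP27 18, KATNA1 19, TENT5C 20, SPTSSA 21, LSM14A 37 and UBE2Q2 60, and DUSP3 ranked 481 (r = 0.812). These r values share the contrast between hairpins that chose the genes and are a description. With the mean of each group taken off, so that the hairpin no longer entered, r with BCAT1 ran from −0.59 for DUSP3 to 0.53 for UBE2Q2 over the same 18 arrays.

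The 10 genes have 15 probes on the array, and 7 of them have 1 probe each. The SNRNP27 probes gave similar differences: ILMN_2069945, the dimmer over all arrays, had log2 values of −1.33, −1.43 and −0.99 in HL-60, SKM1 and MOLM13 (SE 0.10). For ZDHHC9, the probes ILMN_1748803 and ILMN_2254574 had group means between 82.3 and 89.0, under the median of all probes with either hairpin, and log2 differences between −0.05 and 0.09 (SE 0.07 and 0.08). These probes carried no level from which a fall could be read. For SCAMP1, ILMN_3251337 had group means from 98.4 to 125, just above the median, and log2 differences of −0.28, −0.17 and −0.01 (SE 0.07), with groups that did not overlap in HL-60 and SKM1. ILMN_1729058, with group means from 90.3 to 103, had −0.03, −0.05 and 0.18 (SE 0.08), and in MOLM13 its shBCAT1 arrays lay above its shNT arrays. The fall of ZDHHC9 thus rests on 1 bright probe, and that of SCAMP1 in MOLM13 likewise, while in HL-60 and SKM1 a dimmer SCAMP1 probe was lower too. When the probes of a gene were averaged, the log2 differences were −0.41, −0.38 and −0.42 for ZDHHC9 and −0.54, −0.59 and −0.29 for SCAMP1.

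**Figure D4:**
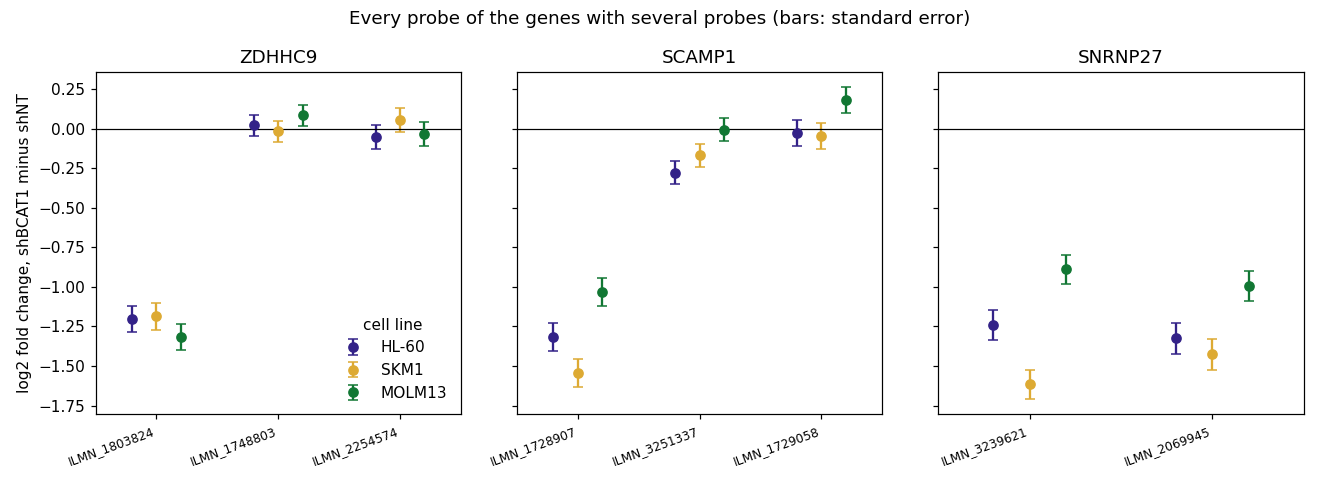
Log2 difference, shBCAT1 minus shNT, of every probe of ZDHHC9, SCAMP1 and SNRNP27 in each line, with bars for the standard error. Both SNRNP27 probes are lower with shBCAT1 in each line. The dim ZDHHC9 probes lie between −0.05 and 0.09, and the dim SCAMP1 probes between −0.28 and 0.18.

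The genes were chosen on differences between hairpins within a line, in which the shNT level is one term, and not on differences in shNT level between lines, which were tested. With shNT, 7432 of the tested genes (48.6%) differed between SKM1 and HL-60, 44.3% between MOLM13 and HL-60 and 47.6% between MOLM13 and SKM1. Of the 10 genes, 4 were higher and 5 lower in SKM1 than in HL-60, 3 were higher and 4 lower in MOLM13 than in HL-60, and 3 were higher and 3 lower in MOLM13 than in SKM1 (limma, adjusted p under 0.05 over all tested genes). Of 30 comparisons, 22 were called in all. The genes had no common order of lines: HL-60 was highest for ZDHHC9, FHOD1, KATNA1, TENT5C, LSM14A and SPTSSA, SKM1 for SCAMP1, SNRNP27 and UBE2Q2, and MOLM13 for DUSP3.

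DUSP3 differed most between lines. Its shNT level was 2570 ± 187 in MOLM13, 1225 ± 101 in SKM1 and 596 ± 67.3 in HL-60 (SD, n = 3). MOLM13 was 4.33-fold above HL-60 (limma adjusted p = 1.63e-14) and 2.10-fold above SKM1 (4.44e-09), and SKM1 was 2.06-fold above HL-60 (6.26e-09). The line with the highest DUSP3 level was thus the line in which the hairpin groups overlapped. TENT5C was 3.79-fold higher in HL-60 (1558 ± 115) than in SKM1 (411 ± 25.3; limma adjusted p = 6.07e-14) and 3.41-fold higher than in MOLM13 (459 ± 65.1; limma adjusted p = 3.31e-13). Between MOLM13 and SKM1 it did not pass the test (limma adjusted p = 0.249), but did without MOLM13 shNT replicate 1 (0.0243) and with array weights (0.0247).

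SNRNP27 was 2.01-fold higher in SKM1 (677 ± 4.85) than in HL-60 (337 ± 24.2; limma adjusted p = 1.86e-09) and 1.59-fold higher than in MOLM13 (426 ± 20.5; limma adjusted p = 1.45e-06). FHOD1 was 1.98-fold higher in HL-60 (777 ± 14.7) than in SKM1 (393 ± 10.6; limma adjusted p = 1.93e-10) and 1.56-fold higher than in MOLM13 (499 ± 42.6; limma adjusted p = 2.93e-07). The other genes differed by less. LSM14A was 1.38-fold and 1.49-fold higher in HL-60 than in SKM1 and MOLM13, SCAMP1 1.38-fold higher in SKM1 than in HL-60, ZDHHC9 1.38-fold higher in HL-60 than in SKM1, and KATNA1 1.43-fold higher in HL-60 than in MOLM13.

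UBE2Q2 was 1.58-fold higher in SKM1 (459 ± 21.0) than in HL-60 (292 ± 36.2; limma adjusted p = 5.33e-05). Its 1.34-fold difference between MOLM13 and HL-60 (limma adjusted p = 0.00532) did not pass without MOLM13 shNT replicate 3 (0.0597), whose value of 468 was the highest of its group. Without that array UBE2Q2 was called lower in MOLM13 than in SKM1 (0.0136, against 0.113 with all arrays), as it was with array weights (0.0183). SPTSSA had the most even level, with 361 ± 20.7 in HL-60, 315 ± 16.7 in MOLM13 and 304 ± 10.5 in SKM1 as means and SD. Its 1.19-fold difference between HL-60 and SKM1 (limma adjusted p = 0.0220) did not pass without HL-60 shNT replicate 1 (0.0974), SKM1 shNT replicate 2 (0.0610) or SKM1 shNT replicate 3 (0.0721). Between MOLM13 and HL-60 it was called only without MOLM13 replicate 1 of shBCAT1 (0.0492) or of shNT (0.0487). ZDHHC9 was 1.27-fold higher in MOLM13 than in SKM1 (limma adjusted p = 0.00130), and with all of its probes averaged this did not pass (0.0764).

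**Figure D5:**
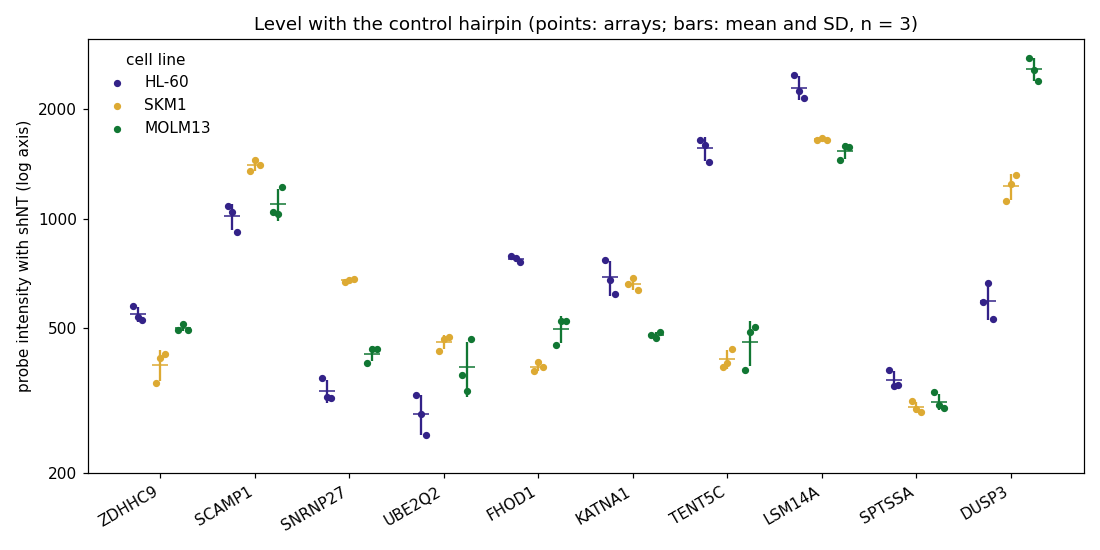
Intensity (log axis) of the 10 genes with the control hairpin in each line, 1 point per array, with bars for the mean and SD of 3 arrays. DUSP3 runs from 596 in HL-60 to 2570 in MOLM13, TENT5C is highest in HL-60 (1558), and SPTSSA lies between 304 and 361 in the 3 lines.

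Level and fall were set side by side. The largest fall was in the line of highest shNT level for 5 of the 10 genes: SCAMP1, SNRNP27, UBE2Q2, LSM14A and SPTSSA. The shNT level is a term of the fall on which the genes were chosen. The share over all tested genes was not computed, and nothing is read from this count. For TENT5C, FHOD1 and KATNA1 the level was highest in HL-60 and the fall largest in SKM1. ZDHHC9 was brightest in HL-60 and fell most in MOLM13, and DUSP3 was brightest in MOLM13 and fell most in HL-60. Several of these orders rest on lines that lay close. The levels of KATNA1 in HL-60 and SKM1 and of ZDHHC9 in HL-60 and MOLM13 were not called different (limma adjusted p = 0.637 and 0.263). Nor were those of UBE2Q2 in SKM1 and MOLM13 (0.113) and of SPTSSA in HL-60 and MOLM13 (0.0731). For the log2 fall, SKM1 minus HL-60 was −0.03 for FHOD1 (SE 0.11), and MOLM13 minus HL-60 was −0.11 for ZDHHC9 (SE 0.12).

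The relatives and partners of the 10 genes were then examined with the same contrast, to see whether other members of each family or complex moved. The 10 lists, written from general knowledge of the families, hold 172 genes, of which 147 were tested. In the mean of the 3 lines 26 of the 147 fell and 20 rose, where 14.1% of all tested genes fell and 13.8% rose. By line, 18 fell and 17 rose in HL-60, where 8.87% of all tested genes fell and 9.98% rose. In SKM1 13 fell and 4 rose, where 6.49% of all fell and 4.66% rose, and in MOLM13 30 fell and 13 rose, where 10.7% of all fell and 10.3% rose. Among the partners named below, the largest mean log2 change was −0.63 (DUSP5), and the largest in 1 line was 0.88 (DUSP22 in MOLM13).

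Of 23 tested tri-snRNP proteins, the partners of SNRNP27, 10 fell and 0 rose in the mean of the lines, with a median log2 difference of −0.08, where 14.1% of all tested genes fell. By line 5, 4 and 11 fell in HL-60, SKM1 and MOLM13, where 8.87%, 6.49% and 10.7% of all tested genes fell. The count in the mean lay between 8 and 11 under every alternative run for it and with any array left out. PRPF4, a protein of the U4/U6 particle, was 1.49-fold lower, with mean intensities of 1168 and 873 (shNT and shBCAT1) in HL-60, 793 and 505 in SKM1, and 1123 and 721 in MOLM13 (mean log2 −0.57, SE 0.04, limma adjusted p = 2.42e-10). PRPF38A, which is needed to activate the spliceosome, fell 1.33-fold (limma adjusted p = 2.48e-07), and USP39, a ubiquitin protease homologue of the tri-snRNP, fell 1.31-fold (3.72e-06). All 3 were called lower in each of the lines.

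Among the families that act on other RNA steps, the P-body and decapping proteins around LSM14A had 1 fall and 2 rises of 16 tested. The decapping enzyme DCP2 fell 1.47-fold (mean log2 −0.55, SE 0.06, limma adjusted p = 4.57e-07) and was called lower in each line. The Argonaute partner TNRC6B rose 1.36-fold (limma adjusted p = 3.62e-05), also in each line. The 5′ exonuclease XRN1 rose 1.19-fold in the mean (limma adjusted p = 0.000119) and by line was called in HL-60 only. Of 10 tested poly(A) and uridylyl transferases related to TENT5C, TENT2 fell 1.19-fold (limma adjusted p = 0.000102) and TUT7 rose 1.18-fold (0.000948). TENT5A, a close paralogue of TENT5C, had a mean log2 difference of 0.13 (limma adjusted p = 0.0483), a call that was lost without one or another of most arrays (0.0533 to 0.122), with quantile normalization (0.0663), with normexp (0.0796) and with no filter on dim genes (0.0522).

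The relatives of the membrane and lipid genes were divided. Of 22 palmitoyltransferases and GOLGA7, 4 fell and 4 rose in the mean. ZDHHC12 rose 1.37-fold (limma adjusted p = 5.02e-06) and ZDHHC23 fell 1.19-fold (0.00115), while ZDHHC4 rose 1.16-fold (0.00195). By line, ZDHHC23 was called in HL-60 only, and in MOLM13 it was dim (105 with shNT, 97.9 with shBCAT1). Of 4 other secretory carrier membrane proteins, 3 rose and 0 fell in the mean, where 13.8% of all tested genes rose. By line, SCAMP2 and SCAMP5 were called higher in HL-60 only, and SCAMP3 was not called in any single line. SCAMP5 was dim in HL-60 (90.6 with shNT, 122.5 with shBCAT1) and SKM1 (83.5 and 84.0), near the median of 92.1. SCAMP2 rose 1.19-fold (limma adjusted p = 0.00150) and SCAMP5 1.16-fold (0.00593), and SCAMP3 1.10-fold with a limma adjusted p of 0.0437 that was lost without one or another of most arrays (0.0546 to 0.102), with normexp (0.0653) and with averaged probes (0.1001). Of 12 sphingolipid genes around SPTSSA, KDSR, the reductase that acts after serine palmitoyltransferase, fell 1.28-fold (limma adjusted p = 3.48e-06). ORMDL1 and ORMDL2, which hold that enzyme in check, rose 1.16-fold and 1.15-fold in the mean (limma adjusted p = 0.000806 and 0.0127). In HL-60, SKM1 and MOLM13 the log2 differences were 0.15, 0.07 and 0.41 for ORMDL1 and 0.40, 0.12 and 0.08 for ORMDL2. By line, ORMDL1 was called in MOLM13 alone and ORMDL2 in HL-60 alone. Neither passed limma's F test of the difference between lines (adjusted p = 0.0662 and 0.228). The group means of ORMDL2 were dim, from 96.3 to 133, and ORMDL1 did not pass with all of its probes averaged (0.0698).

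Of 25 tested ubiquitin-conjugating enzymes, 4 fell and 4 rose. UBE2A, an enzyme of DNA damage tolerance, fell 1.45-fold (mean log2 −0.53, SE 0.05, limma adjusted p = 4.63e-09) and was called lower in each line. UBE2D4 rose 1.24-fold (limma adjusted p = 0.000199), and UBE2Z fell 1.19-fold (0.000171) but not with all of its probes averaged (0.206). Of 20 dual-specificity phosphatases, 3 fell and 2 rose. DUSP5, an inducible nuclear phosphatase of ERK, fell 1.55-fold (mean log2 −0.63, SE 0.07, limma adjusted p = 1.26e-07) and, unlike DUSP3, was called lower in MOLM13 as in the other lines, from 289 to 185. DUSP22 rose 1.33-fold (limma adjusted p = 3.80e-07) and DUSP18 1.22-fold (2.41e-05).

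Of 9 formins tested, INF2 fell 1.26-fold in the mean (limma adjusted p = 4.64e-05), and DIAPH2 (mean log2 −0.14, 0.0525) and FMNL3 (0.12, 0.0578) did not pass. DIAPH2 did pass with the stricter filter (0.0395), with array weights (0.0110), and without HL-60 shNT replicate 3 (0.00604) or MOLM13 shNT replicate 1 (0.0171). FMNL3 did with normexp (0.0465) and without HL-60 shBCAT1 replicate 2 (0.0437), HL-60 shNT replicate 2 (0.0279) or MOLM13 shBCAT1 replicate 3 (0.0448). Its group means were dim, from 81.1 to 111. Of 6 katanin subunits and related severing ATPases, FIGNL1 fell 1.11-fold (limma adjusted p = 0.0252), a call lost without HL-60 shBCAT1 replicate 3 (0.0615), MOLM13 shBCAT1 replicate 1 (0.0503) or MOLM13 shNT replicate 3 (0.0619). KATNAL2 and SPAST, which cut microtubules or are related to enzymes that do, had mean log2 differences of 0.09 and 0.08 and did not pass (0.285 and 0.397). The group means of KATNAL2 were dim, from 85.0 to 97.6, near the median of all probes.

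For part of the partners the difference between hairpins was not the same in each line. By an F test of the difference between lines, 36 of the 147 were called, where 17.9% of all tested genes were.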

How the data were processed

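The deposited values are linear intensities that the authors had normalized. How they did so is not given in the sources used here, and the lowest value was 60.4, as if background had stayed in. Probes were named from the platform annotation (30113 of 48107 with 1 symbol; 17986 not listed). No value was normalized again. From the deposited intensities, log2 values of the brightest probe per gene were fitted with limma 3.58.1 (R 4.3.3) as 6 group means with moderated variances, and p-values were adjusted by Benjamini-Hochberg over 15288 genes whose brightest group exceeded the median of all probes. The contrasts were shBCAT1 minus shNT per line, their mean, an F test between lines, and shNT levels between lines. Figures used matplotlib 3.10.9 and Python 3.11.15.

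The 10 genes, the partner lists and the tests were chosen with earlier results of these data known. Named were BCAT1, the 10 genes with every probe, up to 3 tested partners per list by the smallest adjusted p of the mean, the 5 genes most like BCAT1, and the 5 other genes with the largest mean fall among genes below in all 3 lines. Alternatives were quantile normalization, normexp (offset 50), no filter or one at 1.5 times the median, averaged probes, array weights, a fit on the arrays of the lines compared alone, a replicate block, and each array left out. By the deviations of their arrays, same-numbered MOLM13 samples were alike (r of 0.28, 0.13 and 0.38). Same-numbered r was 0.162, 0.014 and 0.096 in HL-60 and −0.097, −0.142 and 0.040 in SKM1. The labels do not say that same-numbered samples are paired, and the main fit did not pair them. Samples with different numbers reached 0.14 (SKM1 shBCAT1 replicate 2 and shNT replicate 1), so the r of 0.13 does not stand out.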

Additional observations from a re-analysis of the deposited data

Results flagged for a closer look

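For 11 of the named partners, the difference between hairpins itself differed between lines by limma's F test. ZDHHC12 rose in HL-60 (log2 0.84) and SKM1 (0.42) and had 0.11 in MOLM13 (adjusted p = 0.00522), and ZDHHC4 had −0.01, 0.24 and 0.43 (0.0409). TENT5A had −0.02, −0.19 and 0.59, going from 3658 to 5486 in MOLM13 (7.13e-05), TENT2 had −0.27, −0.46 and −0.03 (0.0198), and TUT7 had 0.42, −0.01 and 0.30 (0.0415). UBE2A fell most in SKM1 (−0.47, −0.77 and −0.35; 0.0247). INF2 fell from 982 to 617 in MOLM13 (−0.01, −0.30 and −0.67; 0.00325), and DIAPH2 had 0.16, −0.25 and −0.33 (0.0183). FIGNL1 had −0.05, 0.09 and −0.50 (0.00312). DUSP22 rose from 1164 to 2140 in MOLM13 (0.11, 0.25 and 0.88; 7.01e-05), and KDSR fell from 975 to 641 in HL-60 (−0.61, −0.39 and −0.08; 0.00787). The calls of ZDHHC4, TUT7, UBE2A, TENT2 and DIAPH2 were lost without at least 1 array, with adjusted p up to 0.116, 0.103, 0.0649, 0.0633 and 0.0731, and those of ZDHHC12, TENT5A, INF2, FIGNL1, DUSP22 and KDSR were kept without any one array. ZDHHC4 was also lost with averaged probes (0.135), array weights (0.107) and normexp (0.0603), DIAPH2 with averaged probes (0.0793), TUT7 with quantile normalization (0.0607) and UBE2A with normexp (0.0509).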

How the results depend on the processing

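The median log2 difference of the 10 genes stayed between −0.89 and −0.74 in MOLM13 under every alternative, and moved by more than the replicate spread with the probes of a gene averaged, to −0.99 in HL-60 and −1.002 in SKM1; the dim probes of ZDHHC9 and SCAMP1 enter that average. No direction of a called value was reversed. With normexp the falls of BCAT1 and the 10 genes were 1.02 to 1.11 times as large on the log2 scale (BCAT1 in HL-60, −3.55). DUSP3 in MOLM13, which did not fall, is left out of that range. Genes called in SKM1 numbered 1704, 3089 with array weights and 3000 with that line's arrays alone, and 1186 to 1907 with any array left out. With the replicate block, HL-60 had 3225 calls, SKM1 1966 and MOLM13 3502 (2881, 1704 and 3208 without), and DIAPH2 was called in the mean (adjusted p = 0.0450). Same-numbered arrays correlated in their deviations with r above 0.1 in 3 of 3 MOLM13 pairs and in 1 of the 6 pairs of the other lines. In MOLM13 the block changed no call of a named partner, kept 30 partner falls and gave 14 rises in place of 13. It lowered the standard error of UBE2Q2 there from 0.12 to 0.08. In SKM1, where no same-numbered pair exceeded 0.1, 6 partner rises were called in place of 4. Intensity near the background limits what the dim probes show.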
